A study of Mus musculus with 3 samples.

Results

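The genes described here encode voltage-gated ion channels and the subunits that travel with them. They were the sodium channel genes (Scn), the potassium channel genes (Kcn, with the inward rectifiers, the two-pore channels and the calcium- or sodium-activated channels of the same naming series), the hyperpolarization-activated channels (Hcn) and the calcium channel genes (Cacn). Members were chosen by gene symbol alone, through the RefSeq transcript that each array probe carries. They came to 134 genes with 183 probes, of 20145 named genes and 55681 mouse probes on the array. Of these 134 genes, 89 had 1 probe and 45 had several, whose values were averaged.

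Gene expression was measured on 3 one-color arrays, 1 for each sorted cell population, so the study has no replicates and no test was possible. The ES-Lhx6-GFP+ population and the ES-Lhx6-GFP- population came from mouse J14 embryonic stem (ES) cells of the 129S4/SvJae strain, male by the labels, that carry an Lhx6-GFP BAC transgene and, by the labels, a virally delivered 692-mCherry enhancer reporter. Their embryoid body (EB) aggregates were grown with Dkk-1 at 100 ng/ml, a Wnt antagonist, with the Smoothened agonist SAG at 6 nM from D3 on, and 1920 aggregates were pooled at D12, dissociated and sorted for GFP with Rock inhibitor in the solutions. MGE-Lhx6-GFP+ cells were sorted from the medial ganglionic eminence (MGE) of E12.5 embryos of the CD1 strain carrying the same kind of transgene, female by the labels. GFP in these lines reports the activity of an Lhx6 transgene, so the sort follows the reporter and not the Lhx6 protein, and the ES cells stand for 1 line. Strain, sex, dissociation enzyme and culture against embryo all differ between the MGE array and both ES arrays and cannot be told apart there, whereas the ES arrays share all of these. The populations are called GFP+ ES cells (ES-Lhx6-GFP+), GFP- ES cells (ES-Lhx6-GFP-) and MGE cells (MGE-Lhx6-GFP+) in what follows. GFP+ ES cells and MGE cells are together the GFP+ populations.

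Voltage-gated channels open or close with the membrane potential and set whether and how a neuron fires. Sodium channels carry the upstroke of the action potential, potassium channels repolarize the membrane and hold its resting level, and calcium channels couple electrical activity to transmitter release and gene expression. The pore is formed by alpha subunits, and beta, gamma and alpha2delta subunits or cytoplasmic partners change the traffic and gating of the pore. Lhx6 is a LIM-homeodomain factor of MGE-derived cells that become cortical interneurons, many of them fast-spiking cells that later depend on rapid potassium channels of the Kcnc family.

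Levels are given as log2 intensity relative to the 75th percentile of the mouse probes on the same array, and a difference between arrays is the difference of 2 such levels. Probes differ in brightness, so levels are compared between arrays for the same gene, and the summed intensities of marker lists given below are weighted toward their brightest probes. Signal that cannot come from mouse transcripts was read from 106 control probes against adenovirus and spike-in sequences, and a gene is called above the control range where it passed their 95th percentile on that array. That limit lay at a level of -0.99 on the GFP+ ES array, -2.02 on the GFP- ES array and -1.92 on the MGE array. Where levels are said below to be not let under the control range, each probe under the limit of its array was raised to it. A probe under it on both arrays then shows only the difference between their limits. That difference leans toward the GFP+ ES array, so such values can be moved in its direction. The median control probe had an intensity of 69.9 on the GFP+ ES array, against 11.5 on the GFP- ES array and 7.73 on the MGE array, so unspecific signal was highest on the GFP+ ES array. The median channel probe had an intensity of 209.4, 156.0 and 103.0 on the same arrays. Repeat spots of 1 probe differed with an SD of 0.14 on each array, which puts 2 SDs of a difference at about 0.40, or 1.32-fold, and this error holds no variation between cultures, embryos or amplifications.

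**Figure D1:**
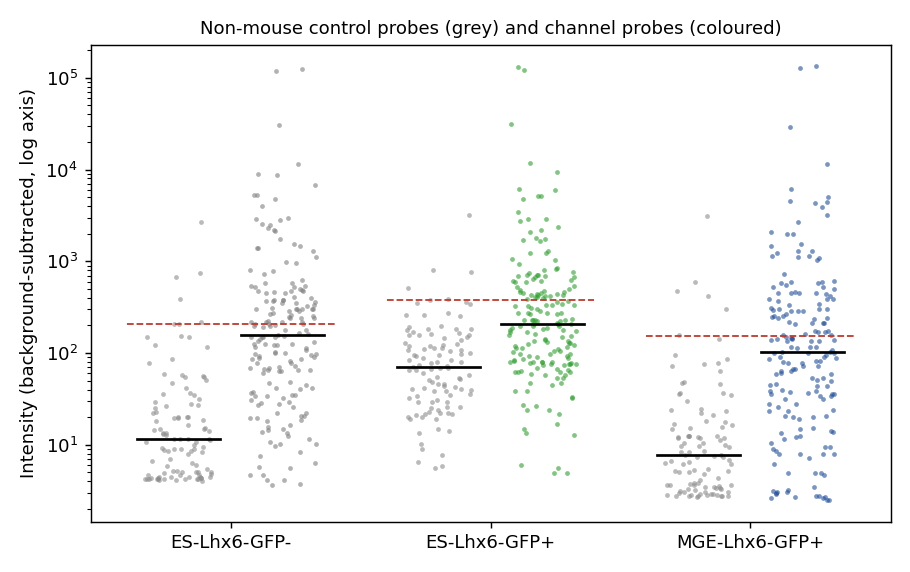
Background-subtracted intensity (log axis) of the 106 non-mouse control probes (grey, left of each pair) and the 183 channel gene probes (right of each pair, in dark grey, green and blue for GFP- ES, GFP+ ES and MGE cells) on the 3 arrays, with black bars at the medians and red dashed lines at the 95th percentile of the control probes. The control probes sit highest on the GFP+ ES array, where their median was 69.9.

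Of the 134 channel genes, 129 had a probe well above the local background on at least 1 array. The exceptions were Kcne1, Kcnh5, Kcnj16, Kcnq1 and Kcnv2. Above the control range on at least 1 array were 66 genes, 40 of them on all 3 arrays, and the other 63 of the 129 stayed within it throughout. In percent, 51.2% of the 129 channel genes passed the control range on some array and 31.0% on all 3, beside 62.1% and 44.4% of all 18798 genes with a detected probe. By array, 46 channel genes were above it in GFP+ ES cells, 57 in GFP- ES cells and 54 in MGE cells. These were 35.7%, 44.2% and 41.9%, beside 47.0%, 58.9% and 53.5% of all genes, which had the same order of arrays. In these bulk samples, fewer cells that express a gene and less RNA per cell cannot be told apart.

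A gene was compared between 2 arrays where it was above the control range on at least 1 of them, and it was called higher or lower where the arrays differed at least 2-fold. Between the ES-derived populations, 60 channel genes were compared. Of these, 9 were at least 2-fold higher in GFP+ ES than in GFP- ES cells and 3 were lower, beside 6.05% and 9.00% of all 11243 genes compared. Among the higher genes were Kcnip2, Cacna1c, Cacna1d, Kcnj9, Cacnb3, Cacng8, Scn1a and Scn2a, and the 3 lower genes were Cacna2d1, Kcnj10 and Cacnb2. Channel genes were thus called higher at 15.0% and lower at 5.0%, and 70.0% of them leaned toward GFP+ ES cells, against 50.7% of all genes. Their median difference was 0.30, beside 0.01 over all genes. The count depends on how the arrays are scaled, and so do the calls over all genes, given for each setting in the closing section. With the 50th percentile in place of the 75th, the median over all genes moved to -0.43, that of channel genes to -0.14 and the calls to 4 higher and 6 lower. Quantile normalization gave 9 higher and 7 lower. Taken relative to the median of all genes compared, which no scaling of a whole array changes, 8 were higher and 3 lower.

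MGE and GFP+ ES cells, the embryonic population and its counterpart from culture, were also compared over 60 channel genes. Here 3 genes, Kcnmb4, Kcnc2 and Cacna1a, were at least 2-fold higher in MGE cells, and 11 were lower, beside 8.78% and 9.18% of all 10480 genes compared. The shares were 5.0% higher and 18.3% lower. Among the lower genes were Cacng1, Kcnip2, Cacna2d1, Kcna6, Kcnj9, Cacna1d, Cacna1c, Cacna2d3, Kcnk3 and Cacna1g. The median difference was -0.06 for channel genes and 0.12 for all genes. Scaling by the 50th percentile moved the median over all genes to 0.87 and the calls to 13 higher and 5 lower, and quantile normalization gave 6 higher and 8 lower. Relative to the median of all genes the calls were again 3 higher and 11 lower.

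Between MGE and GFP- ES cells, which differ both in reporter and in origin, 63 channel genes were compared. Of these, 10 were at least 2-fold higher in MGE cells and 9 were lower, or 15.9% and 14.3%, beside 11.8% and 15.2% of all 11548 genes. The 10 were Kcnc2, Kcnmb4, Scn3a, Cacng2, Kcnd2, Scn1a, Cacna1e, Cacna2d2, Cacnb3 and Kcnip3. The 9 lower genes were Cacna2d1, Kcnj10, Kcna6, Cacng1, Kcnn3, Cacnb2, Cacna1g, Cacng5 and Kcnk7. With the 50th percentile as the scale, the median over all genes was 0.37 in place of 0.06, and the calls were 19 higher and 7 lower. Every comparison shares an array with each of the others, so a value that is high or low on 1 array enters a pair of them.

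**Figure D2:**
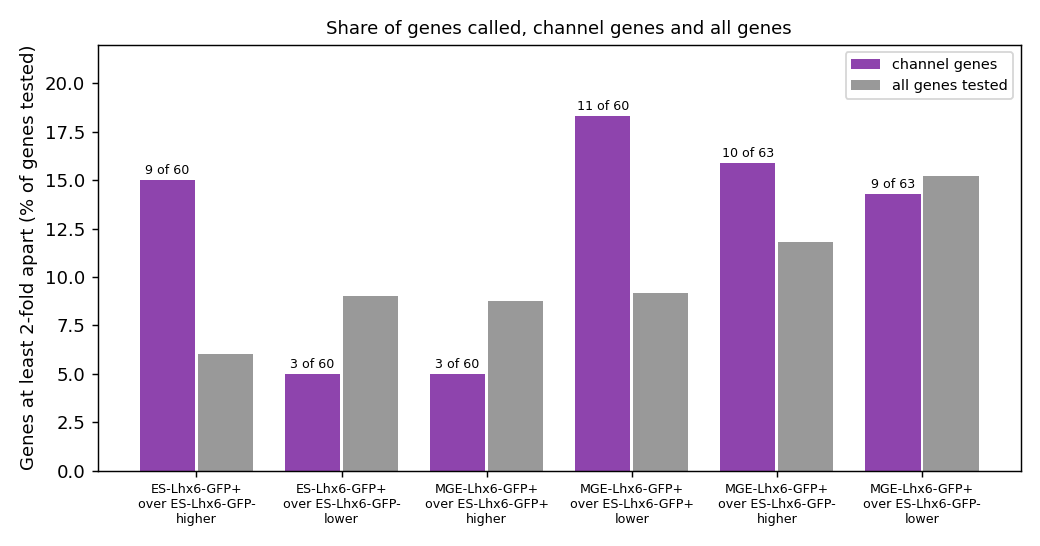
Percent of the genes compared that were at least 2-fold higher or lower, for channel genes (purple, with the count of channel genes above each bar) and for all genes compared (grey), in the 3 comparisons. The purple bar is the taller one for genes higher in GFP+ ES than in GFP- ES cells, at 15.0% against 6.05%, for genes higher in MGE than in GFP- ES cells, at 15.9% against 11.8%, and for genes lower in MGE than in GFP+ ES cells, at 18.3% against 9.18%.

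Among the sodium channel alpha subunits, which form the pore, 4 of 9 genes were above the control range, each of them on all 3 arrays: Scn1a, Scn2a, Scn3a and Scn8a. These 4 are the alpha subunits of the central nervous system. Scn1a, the main alpha subunit of mature interneurons, had a level of -0.73 in GFP+ ES cells, -1.91 in GFP- ES cells and -0.66 in MGE cells. Both populations sorted for GFP were close to each other and above GFP- ES cells, by 1.18 and 1.25 on the log2 scale, or 2.27-fold and 2.38-fold. Both of its probes gave the same order against GFP- ES cells, with differences of 1.18 and 1.19 for GFP+ ES cells and of 1.08 and 1.43 for MGE cells. Scn2a, an alpha subunit of developing and excitatory axons, had levels of -0.36, -1.44 and -0.85 in the same order of arrays. It was 2.12-fold higher in GFP+ ES than in GFP- ES cells and lay between them in MGE cells, and the call held under 6 of 11 other ways of processing, with a lowest difference of 0.64. Scn3a, the alpha subunit best known from the embryonic brain, had levels of -0.70, -1.69 and -0.15 and was highest in MGE cells. Its difference from GFP- ES cells was 1.54 there, or 2.90-fold, and 0.99 in GFP+ ES cells, just short of 2-fold. The latter is a mean of 0.16 and 0.60 in the brighter probes and 2.20 in a dim one. That dim probe was within the control range on every array and undetected in GFP- ES cells. The probes of Scn3a did not all point the same way between MGE and GFP+ ES cells, where the dim probe gave -0.44 and the others 1.03 and 1.06. Scn8a, an alpha subunit of the axon initial segment, had levels of 1.74, 1.01 and 1.69 and no 2-fold difference, and its 3 probes ran from -0.71 to 0.44 in that same comparison. All 4 genes had positive differences from GFP- ES cells in either GFP+ population, though not all reached 2-fold, with median differences of 1.04 and 0.96.

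The beta subunits of sodium channels are single-pass adhesion proteins that tune gating. Scn4b alone, of 3 on the array, was above the control range, with levels of -1.72 in GFP+ ES cells, where this was within the range, -1.69 in GFP- ES cells and -1.88 in MGE cells. These values lay within 0.18 of each other.

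Of the 40 alpha subunits of voltage-gated potassium channels, 15 were above the control range on some array and 9 on all 3. Kcnc2 encodes a fast delayed rectifier of fast-spiking interneurons. Its level was -1.70 in GFP+ ES cells, -4.33 in GFP- ES cells and -0.36 in MGE cells, and it passed the control range only on the last array. It was not compared between the ES-derived populations. MGE cells were higher by 1.34 than GFP+ ES cells and by 3.97 than GFP- ES cells, or 2.53-fold and 15.7-fold. With levels not let under the control range, the latter difference was 1.65, and that between the GFP+ populations was 0.62, so their full size rests on signal no brighter than that of control probes. Kcnc1, its relative, differed by less than 2-fold in all 3 comparisons.

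Kcna6, a delayed rectifier of the Shaker family, showed another order. It had levels of 0.37 in GFP+ ES cells, 0.55 in GFP- ES cells and -1.66 in MGE cells. The ES-derived populations differed by 0.18, less than 2 SDs between repeat spots, as a mean of probes that gave -0.46 and 0.09 for GFP+ ES over GFP- ES cells, while MGE cells were 4.09-fold and 4.64-fold lower, with both probes lower there.

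Kcnd2, a channel of the dendritic A-type current, was highest in MGE cells, with levels of -1.04 in GFP+ ES cells, -1.63 in GFP- ES cells and -0.22 in MGE cells, and was 2.66-fold higher there than in GFP- ES cells. Its family members Kcnd1 and Kcnd3 were above the control range on all 3 arrays and did not reach 2-fold in any comparison. Kcna4, another Shaker-type channel, had levels between 7.13 and 7.86 and differed by at most 0.73. Over the whole family, 11 of 13 genes compared leaned toward GFP+ ES over GFP- ES cells, with a median of 0.34. With arrays scaled by the 50th percentile that median was -0.11 and 6 of 13 leaned so, beside the shift of all genes given above.

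Kcna7, a Shaker-type gene best known from muscle, shows how far probes of 1 gene can part. Its gene value differed by only -0.03 between MGE and GFP+ ES cells, but 1 probe gave 1.47 and the other -1.54. Kcnj11, whose probes gave -1.83 and 1.20 there, parted likewise, and so did Kcne3 and Kcnq5, both within the control range where their probes parted. For these 4 genes the mean describes neither probe.

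Auxiliary subunits of potassium channels had 4 of 11 genes above the control range on some array. Kcnip2 encodes a calcium-binding protein that brings Kcnd channels to the surface and is best known from the heart. It had a level of -0.20 in GFP+ ES cells, -2.06 in GFP- ES cells and -2.59 in MGE cells, and passed the control range in GFP+ ES cells only. There it was 3.62-fold higher than in GFP- ES cells and 5.22-fold higher than in MGE cells. Under the 11 other ways of processing that give its value, these differences stayed past 2-fold. Kcnip3 had levels of -2.07, -2.45 and -1.39, of which only the last was above the control range. It was 2.08-fold higher in MGE than in GFP- ES cells. That value rested on 1 of its 2 probes, which gave 2.09 while the other gave 0.03, and the call held under 4 of 11 other ways of processing. Kcnab1, a cytoplasmic beta subunit, was above the control range on all 3 arrays and varied by at most 0.29.

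Among calcium- or sodium-activated potassium channels, 5 of 12 genes were above the control range on some array. Kcnmb4 encodes the neuronal beta subunit of the large-conductance BK channel. Its levels were -1.64 in GFP+ ES cells, -1.92 in GFP- ES cells and -0.10 in MGE cells. The ES-derived populations were within 0.28 of each other, and MGE cells were higher by 1.54 and 1.81, or 2.90-fold and 3.51-fold, in both probes. The level in GFP+ ES cells was within the control range, and the difference from it was 0.88 with levels not let under that range. Kcnma1, the pore of the BK channel, had levels of -1.87, -2.15 and -1.44 and did not reach 2-fold. Kcnn3, a small-conductance channel, was above the control range in GFP- ES cells only, with levels of -2.31, -1.53 and -3.35, and was 3.52-fold lower in MGE cells. With levels not let under the control range that difference was -0.60.

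The inward rectifiers hold the resting potential and, in glia, clear potassium. Of 15 genes, 4 were above the control range on some array, and 2 of them are neighbors on chromosome 1 and differed between the ES-derived populations in opposite directions. Kcnj9 encodes a subunit of the G protein-gated channels of neurons. Its level was 0.13 in GFP+ ES cells, -1.49 in GFP- ES cells and -1.72 in MGE cells. It stood out in GFP+ ES cells, 3.08-fold above GFP- ES cells and 3.61-fold above MGE cells. Kcnj10, the main inward rectifier of astrocytes and oligodendrocytes, was above the control range in GFP- ES cells only, with levels of -3.06, -1.92 and -5.52. It was 2.20-fold lower in GFP+ ES cells and was called lower in MGE cells, where it was not well above background. Its level in GFP- ES cells was just above the control limit of that array, so that no 2-fold difference was left in either comparison when levels were not let under the limit, and these data set no lower bound on the fold.

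Promoter sequences are shown for 4 genes, since Kcnj9 and Kcnj10 are neighbors with opposite differences, Cacna2d1 had the largest negative difference of all channel genes compared and Kcnc2 the largest positive one, a rank that rests on a level within the control range in GFP- ES cells and does not hold with levels not let under it, where Kcnc2 had 1.65 and Kcnip2 1.81 in GFP+ ES over GFP- ES cells. Each is the 250 bases before the RefSeq start of build GRCm38.p6, read 5′ to 3′ on the strand of the gene. Kcnj9 lies on the minus strand at chr1:172329323-172329572, Kcnj10 on the plus strand at chr1:172340960-172341209, so they are read away from each other. Cacna2d1 is on the plus strand at chr5:15934441-15934690, and the most upstream of 4 Kcnc2 starts is on the plus strand at chr10:112269767-112270016. Capitals mark matches on either strand, with no match overlapping another motif in these 4, to the GC box GGGCGG, the CCAAT box, the TATA box TATAAA or the homeodomain core TAATTA. The ends of the element of the neuronal repressor REST, TTCAGCACC on the left side and GGACAGC on the right side, were searched too.
Kcnj9: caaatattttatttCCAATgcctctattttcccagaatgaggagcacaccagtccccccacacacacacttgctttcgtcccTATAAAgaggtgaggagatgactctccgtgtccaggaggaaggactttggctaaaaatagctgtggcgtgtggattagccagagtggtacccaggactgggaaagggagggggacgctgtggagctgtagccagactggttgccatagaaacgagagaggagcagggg
Kcnj10: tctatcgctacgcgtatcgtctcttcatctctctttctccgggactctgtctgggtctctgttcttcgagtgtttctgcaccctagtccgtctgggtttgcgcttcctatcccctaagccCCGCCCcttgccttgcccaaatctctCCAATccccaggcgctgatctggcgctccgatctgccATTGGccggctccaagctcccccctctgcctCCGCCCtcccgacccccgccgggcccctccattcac
Cacna2d1: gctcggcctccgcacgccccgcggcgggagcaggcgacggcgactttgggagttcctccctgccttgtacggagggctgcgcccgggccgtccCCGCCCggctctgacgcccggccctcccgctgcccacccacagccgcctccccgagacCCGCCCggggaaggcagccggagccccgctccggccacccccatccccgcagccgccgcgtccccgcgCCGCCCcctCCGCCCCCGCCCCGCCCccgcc
Kcnc2: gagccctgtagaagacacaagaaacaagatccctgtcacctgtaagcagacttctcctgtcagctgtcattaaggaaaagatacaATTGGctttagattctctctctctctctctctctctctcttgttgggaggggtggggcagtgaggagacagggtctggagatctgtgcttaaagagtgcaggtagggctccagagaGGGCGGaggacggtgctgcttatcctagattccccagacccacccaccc
Kcnj9 held a TATAAA match that starts 168 bases before the start and a CCAAT match, and no GGGCGG. The promoter of Kcnj10 held 2 GGGCGG and 2 CCAAT matches and no TATAAA. That of Cacna2d1 held 6 GGGCGG matches and was 82.4% G and C, with 36 CpG, beside 62.0% for Kcnj10, 52.0% for Kcnj9 and a median of 52.4% and 6 CpG over all RefSeq promoters. GGGCGG was found in 43.4% of the 129 promoters of 96 channel genes and in 32.7% of all 32851 promoters. For TATAAA the shares were 3.10% and 12.4%, for CCAAT 27.9% and 33.8%, for GGACAGC 7.75% and 5.28%, for TTCAGCACC 0.775% and 0.301%, and for TAATTA 0 and 4.84%. These matches describe letters in a window and were not tied to the differences.

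Two-pore channels give the background potassium leak, and 8 of 14 genes were above the control range on some array. Kcnk3, an acid-sensitive leak channel, had levels of -0.78 in GFP+ ES cells, -1.73 in GFP- ES cells and -2.05 in MGE cells, the last within the control range. It was 2.41-fold lower in MGE than in GFP+ ES cells. Kcnk7 had levels of -1.29, -1.94 and -3.00, of which the one in GFP- ES cells was above the control range, and was 2.08-fold lower in MGE than in GFP- ES cells, a call that held under 4 of the 9 other ways of processing that gave a value. The median difference of the family was 0.22 for GFP+ ES over GFP- ES cells, -0.43 for MGE over GFP+ ES cells and -0.33 for MGE over GFP- ES cells. Scaling by the 50th percentile turned the first to -0.22 and the second to 0.32, and moved the third to -0.02. Kcnk2, a mechanosensitive leak channel, leaned the other way and was highest in MGE cells, at -0.74, against -1.45 and -1.34, without reaching 2-fold. The probes of Kcnk4, another mechanosensitive member, which was above the control range on all 3 arrays, differed in sign, with 0.70 and -0.11 for GFP+ ES over GFP- ES cells and 0.26 and -0.30 for MGE over GFP- ES cells.

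Hcn channels carry the pacemaker current. Hcn2 was above the control range on all 3 arrays with levels of 1.01, 1.13 and 0.98, which lay within 2 SDs between repeat spots of each other. These means hide opposed probes, which gave -0.60 and 0.35 for GFP+ ES over GFP- ES cells. Hcn3 had levels of -1.17, -1.47 and -1.46 and was within the control range in GFP+ ES cells. Hcn4 stayed within it on all 3 arrays.

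**Figure D3:**
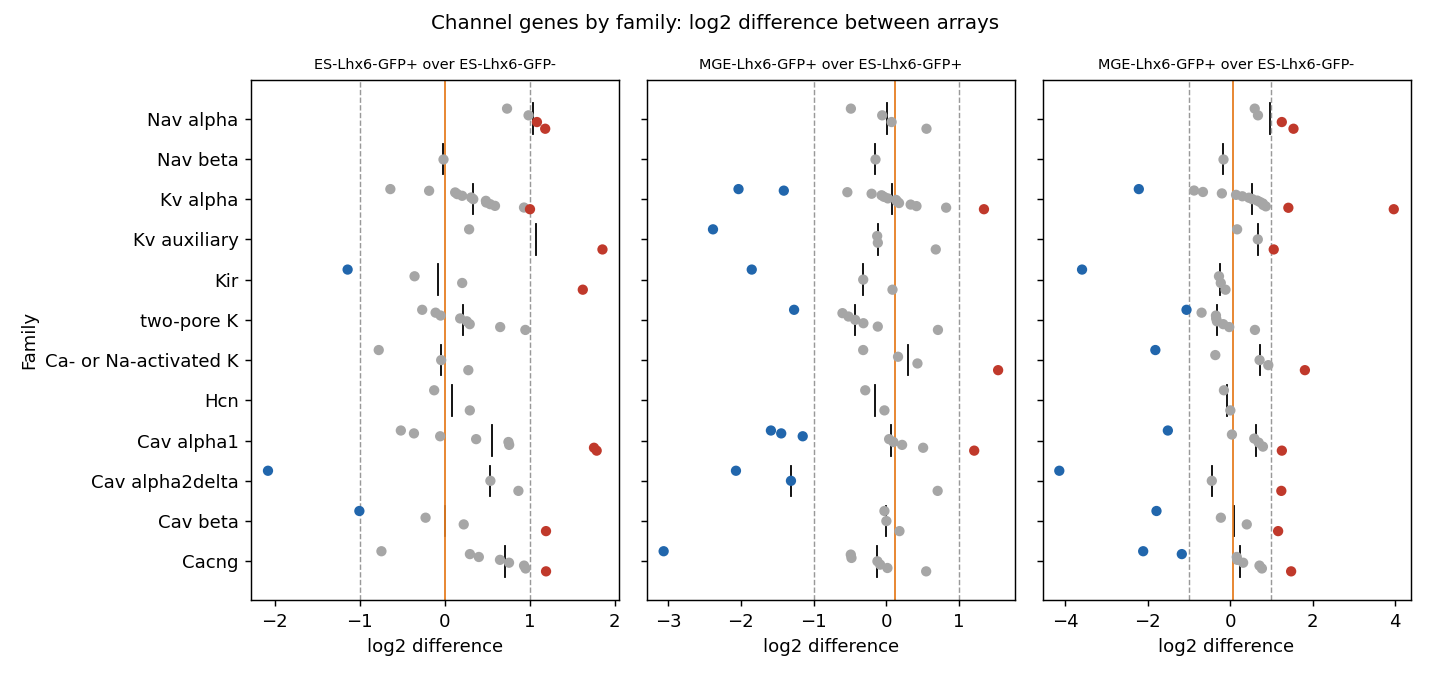
Log2 difference of every channel gene compared, by family, in the 3 comparisons. Points are genes (red, at least 2-fold higher; blue, at least 2-fold lower; grey, neither), black bars are family medians, dashed lines mark 2-fold and the orange line is the median of all genes compared. The sodium channel alpha subunits lie to the right of zero in the outer panels, with medians of 1.04 and 0.96.

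Calcium channel pore subunits (Cacna1) had 8 of 10 genes above the control range on some array and 5 on all 3. The L-type genes Cacna1c and Cacna1d, whose channels couple depolarization to transcription and drive muscle contraction, were both highest in GFP+ ES cells. Cacna1c had levels of -0.96 in GFP+ ES cells, -2.75 in GFP- ES cells and -2.41 in MGE cells. It was above the control range in GFP+ ES cells only, and just so. For Cacna1d the levels were -0.58, -2.34 and -2.17. GFP+ ES cells exceeded GFP- ES cells 3.45-fold for Cacna1c and 3.38-fold for Cacna1d, and MGE cells 2.72-fold and 3.00-fold. For Cacna1d 1 probe carried most of the change between the ES-derived populations, at 2.77, while the other gave 0.74, and between MGE and GFP+ ES cells the same probes gave -2.94 and -0.24. Since unspecific signal was highest on the GFP+ ES array, these differences were also taken with levels not let under the control range, and again with that floor after the median control signal of each array was taken off. For GFP+ ES over GFP- ES cells Cacna1c had 1.06 with the floor alone and 0.97 with both, Cacna1d 1.51 and 1.49, Kcnip2 1.81 and 1.85, and Kcnj9 1.62 and 1.67. In Cacna1d the floor raised the probe with 0.74 from -1.21 to the limit of -0.99 in GFP+ ES cells, which added to its difference.

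The P/Q-type gene Cacna1a, whose channel triggers transmitter release, was highest in MGE cells, with levels of -1.66 in GFP+ ES cells, -1.15 in GFP- ES cells and -0.46 in MGE cells. It was 2.31-fold higher there than in GFP+ ES cells, in both probes. The level in GFP+ ES cells was within the control range, and the difference was 0.13 when levels were not let under it. That is a mean of a probe above both limits, which still gave 1.19, and one raised to the limit on both arrays. The latter gave 1.23 without the floor. The N-type gene Cacna1b, a partner in release, had levels of 1.14, 0.39 and 1.18 and differed from GFP- ES cells by 0.76 and 0.80 in the GFP+ populations, short of 2-fold. The R-type gene Cacna1e had levels of -0.16, -0.90 and 0.35, and MGE cells were 2.39-fold above GFP- ES cells. The T-type genes, which open near rest, did not share a pattern. Cacna1g was lowest in MGE cells, at -1.79, against -0.64 in GFP+ ES and -0.27 in GFP- ES cells, and was 2.22-fold and 2.85-fold lower. Cacna1h and Cacna1i were above the control range on all 3 arrays, and their differences were at most 0.59 and 0.10. For Cacna1i the latter is a mean over probes that opposed each other, at 0.36 and -0.47 for GFP+ ES over GFP- ES cells and at -0.29 and 0.49 for MGE over GFP+ ES cells.

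The alpha2delta subunits bring calcium channels to the surface, and those encoded by Cacna2d1 and Cacna2d2 bind gabapentin. Cacna2d1 had the widest range of any channel gene that was above the control range on all 3 arrays. Its level was 0.51 in GFP+ ES cells, 2.59 in GFP- ES cells and -1.56 in MGE cells. The order was GFP- ES, GFP+ ES, MGE, with steps of 4.22-fold and 4.19-fold and 17.7-fold in all. Both probes gave that order, with differences between MGE and GFP- ES cells of -4.36 and -3.93. Its paralog Cacna2d2 ran the other way, with levels of 2.54, 2.00 and 3.24, and MGE cells were 2.36-fold above GFP- ES cells, where its probes gave 2.00 and 0.48. Cacna2d3 had levels of 2.66, 1.80 and 1.35 and was highest in GFP+ ES cells, 2.48-fold above MGE cells.

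The cytoplasmic beta subunits of calcium channels were all above the control range on some array. Cacnb3, a beta subunit of neuronal channels, had levels of 3.01 in GFP+ ES cells, 1.82 in GFP- ES cells and 2.98 in MGE cells. The GFP+ populations were within 0.03 of each other and 2.28-fold and 2.24-fold above GFP- ES cells. Cacnb2, the beta subunit of cardiac L-type channels that is also present in brain, was the reverse, with levels of -1.26, -0.26 and -2.04, and was above the control range in GFP- ES cells only. It was 2.00-fold lower in GFP+ ES and 3.45-fold lower in MGE cells, and with levels not let under the control range these differences were -0.02 and -0.92. In each of these, 1 of its 2 probes was raised to the limit on both arrays, and the other gave -1.07 and -1.94. Cacnb1 and Cacnb4 differed by at most 0.40.

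The Cacng genes encode the gamma subunit of muscle calcium channels and its relatives, several of which are carriers of AMPA receptors. All 8 were above the control range on some array and 6 on all 3. Cacng2, the best known AMPA receptor carrier, had levels of 0.35 in GFP+ ES cells, -0.58 in GFP- ES cells and 0.90 in MGE cells, and was 2.79-fold higher in MGE than in GFP- ES cells. Cacng8, another carrier, had levels of -0.08, -1.27 and -0.56 and was 2.28-fold higher in GFP+ ES than in GFP- ES cells. Cacng2 and Cacng8 were thus both lowest in GFP- ES cells, while the level of Cacng5, given below, was highest there. Cacng1, the gamma subunit of skeletal muscle, had levels of -0.87, -1.82 and -3.93, and MGE cells were 8.34-fold below GFP+ ES cells and 4.31-fold below GFP- ES cells. Both ES levels were little above the control limit of their arrays, and the differences were -1.05 and -0.10 with levels not let under the control range. Cacng5 was above it in GFP- ES cells only, at -1.48, and was 2.25-fold lower in MGE cells, where its level was -2.66 and within the control range. With levels not let under that range this difference was -0.44. Cacng7 had a level between 2.64 and 3.04 on the 3 arrays.

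**Figure D4:**
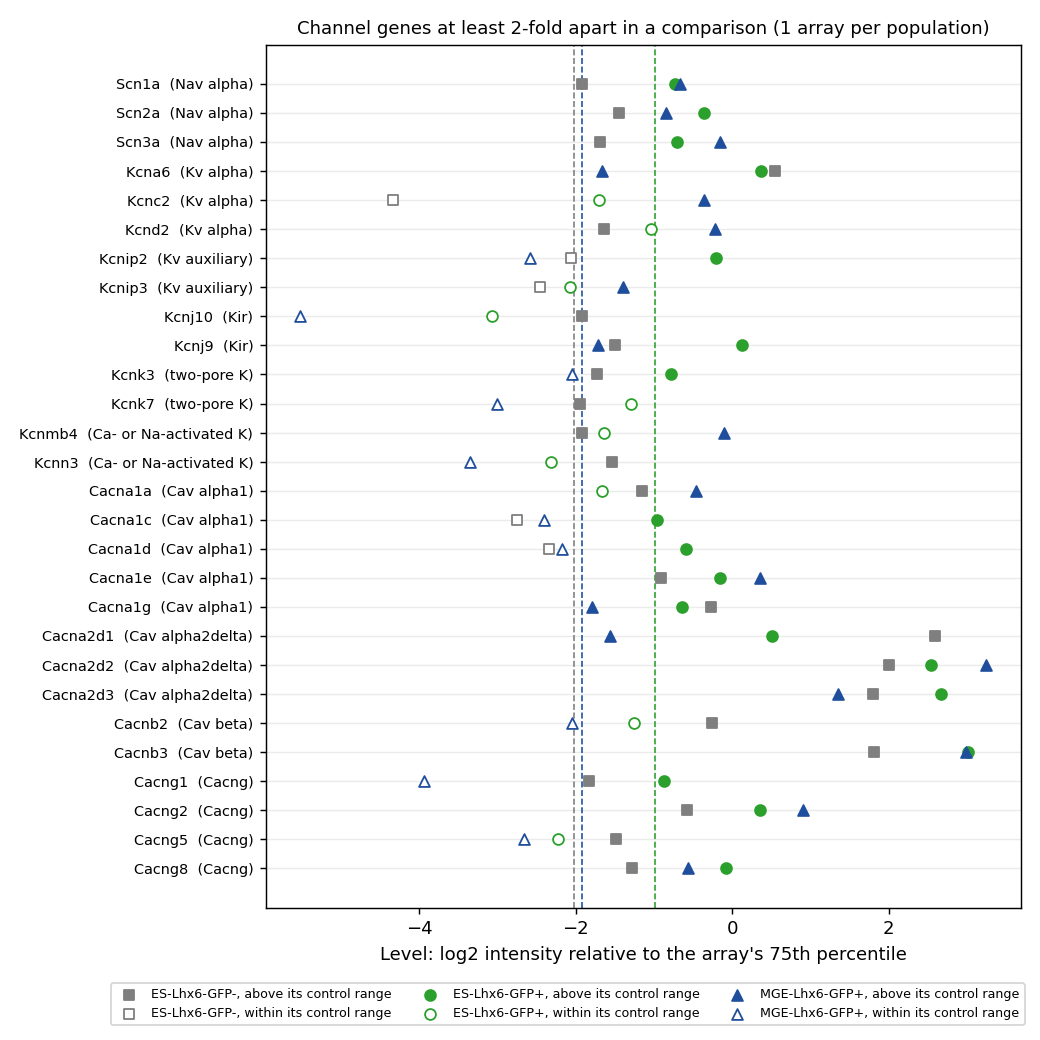
Level of 28 channel genes called in at least 1 comparison, as log2 intensity relative to the 75th percentile of each array, in GFP- ES cells (grey squares), GFP+ ES cells (green circles) and MGE cells (blue triangles), with 1 array each. Filled symbols are above and open symbols within the control range of their array, whose limits are the dashed lines, at -0.99 for GFP+ ES cells.

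Some channel genes lie next to each other among protein-coding genes. Scn3a and Scn2a, neighbors on chromosome 2, differed by 0.99 and 1.08 for GFP+ ES over GFP- ES cells, and parted between MGE and GFP+ ES cells, at 0.55 and -0.49. The 0.99 rests mostly on the dim probe of Scn3a. Cacng1 and Cacng4 on chromosome 11 parted too, at -3.06 and 0.01 in that comparison. Cacng7, Cacng8 and Cacng6 on chromosome 7 differed by 0.40, 1.19 and 0.30 for GFP+ ES over GFP- ES cells, of which Cacng8 alone reached 2-fold.

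Genes whose products anchor or regulate these channels were read from a separate list of 30. Between the ES-derived populations 25 of them were compared, with a median of 0.55. Of these, 7 were at least 2-fold higher in GFP+ ES cells and none was lower, beside 6.05% and 9.00% of all genes compared. With levels not let under the control range, 8 were higher and none was lower. That limit is highest on the GFP+ ES array and itself adds to differences in this direction. Lgi1, a secreted protein that binds Adam22 and regulates presynaptic potassium channels, had levels of 1.16 in GFP+ ES cells, -1.68 in GFP- ES cells and -0.05 in MGE cells, and was higher by 2.84 in GFP+ ES cells. Its partner Adam22 was higher by 1.10 and 1.09 in GFP+ ES and MGE than in GFP- ES cells. Cntnap2, which clusters Kcna channels along axons, was higher by 1.45 and 1.98. The fibroblast growth factor homologs Fgf13 and Fgf14, which bind sodium channel tails, were higher by 1.23 and 1.21 in GFP+ ES and by 2.04 and 1.23 in MGE cells. Sptbn4, a spectrin of the initial segment, and Amigo1, an auxiliary subunit of potassium channels, were the others at least 2-fold higher in GFP+ ES cells. MGE cells had 12 of 28 partners higher and 1 lower than GFP- ES cells, with a median of 0.54. Of all genes compared there, 11.8% were higher and 15.2% lower. The 1 lower partner was Rest, the repressor of neuronal genes, with levels of -1.22, -0.96 and -2.24. The first and the last were within the control range, and the difference was -0.95 with levels not let under that range. With that floor 10 partners were higher and none lower, and Dlg2 and Dpp10 fell short of 2-fold at 0.54 and 0.84. Between MGE and GFP+ ES cells, 2 of 26 were higher (Unc79 and Nedd4l) and 2 lower (Fgf12 and Lgi1). Of all genes compared there, 8.78% were higher and 9.18% lower. With the floor, 2 partners were higher and 4 lower, and here too the higher limit of the GFP+ ES array leans toward lower values in MGE cells.

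Markers of cell types were read beside these results. Of 10 MGE lineage genes all were above the control range on all 3 arrays and all were at least 2-fold higher in either GFP+ population than in GFP- ES cells. Lhx6 itself had levels of 4.90 in GFP+ ES cells, 2.27 in GFP- ES cells and 5.67 in MGE cells, which follows the sort. The 10 neuronal markers were above the control range on all 3 arrays, GFP- ES cells included, with a median difference of 0.48 between GFP+ ES and GFP- ES cells, and Dcx and Elavl3 were higher by 1.29 and 1.10. Elavl4 and Nefl leaned the other way, by -0.83 and -0.68, and Nefl was 3.01-fold lower in MGE than in GFP- ES cells.

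GFP- ES cells held more signal of progenitors and glia. Of 10 progenitor and radial glia markers, 8 of 9 compared were at least 2-fold lower in GFP+ ES cells, with a median of -2.37, and the summed intensity of the list was 55408 in GFP- ES cells, 9716 in GFP+ ES cells and 9270 in MGE cells. Vim, an intermediate filament protein, had a level of 4.36 in GFP- ES cells, against 0.98 in GFP+ ES and 1.04 in MGE cells. Of 6 astroglial markers, 4 were compared, and all 4 were lower in both GFP+ populations, with a summed intensity of 11712 against 1672 in GFP+ ES and 258 in MGE cells. The probe of Sparcl1 carried most of this sum in GFP- ES cells, with an intensity of 8233, while Gfap and Gjb6 were within the control range on all 3 arrays. Of 7 oligodendrocyte lineage markers, 3 of 5 compared were lower in GFP+ ES cells, Olig2 among them by 2.93 on the log2 scale. With levels not let under the control range, 7 progenitor, 3 astroglial and 2 oligodendrocyte markers were still at least 2-fold lower in GFP+ ES than in GFP- ES cells. Against GFP- ES cells these lists move with Kcnj10, Cacna2d1 and Cacnb2, and their part in those differences was not tested. Between MGE and GFP+ ES cells, where Cacna2d1 was 4.19-fold lower, the median difference was 0.06 for the progenitor and -0.15 for the oligodendrocyte markers. Of the astroglial markers 2 were compared there, with a median of -3.09, and 1 was called lower. That was Sparcl1, at -5.32, or -1.88 with levels not let under the control range, while S100b had -0.85. The 2 mesenchymal markers compared there, Col1a2 and Col3a1, were lower too, at -3.20 and -4.81. The part of these lists in the difference of Cacna2d1 was not tested.

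Some channel genes with a high value in GFP+ ES cells are best known from muscle. Of 7 cardiac and skeletal muscle markers, Myh7 was the 1 above the control range in GFP+ ES cells, with a level of -0.43 against -1.52 in GFP- ES and -0.39 in MGE cells. Actc1, the cardiac actin, was above it in GFP- ES cells only, just so at -1.95, and was not well above background on the other arrays. The control limit of the GFP+ ES array lies above that level, so no difference from GFP+ ES cells was left with the floor. Myog passed the range in GFP- ES and MGE cells and differed by at most 0.35. Tnnt2, Ttn, Ckm and Myh6 were within the control range on all 3 arrays. Of 6 mesenchymal markers, none was above the control range in MGE cells, 2 were in GFP+ ES and 5 in GFP- ES cells. Col3a1, a fibrillar collagen, had levels of 0.72 in GFP+ ES cells, 0.54 in GFP- ES cells and -4.09 in MGE cells. Pdgfrb and Twist1 were above the range in GFP- ES cells only and were 5.58-fold and 3.01-fold lower in GFP+ ES cells, differences that were -0.15 and -0.16 with levels not let under the control range. Of the erythroid markers, 2 globins passed the range in MGE cells, where Hba-a1 had a level of 3.38 and Hbb-y of 3.29, against -0.21 and -4.17 in GFP+ ES cells and -0.65 and -5.02 in GFP- ES cells, while the globin Hbb-bh1 and Alas2 were within it on all 3 arrays. Of endothelial and mural markers, which include the channel gene Kcnj8, only Kdr passed the control range, in GFP- ES and MGE cells, and of 6 microglial markers 2, 2 and 3 did on the GFP+ ES, GFP- ES and MGE arrays. The part of these cells in the channel gene differences was not tested.

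The 45 calls on 30 channel genes kept their direction under every one of the 11 other ways of processing that gave a value. All of these reuse the same arrays. Under a floor, a difference whose sign came from a raised level was given no value, so such a change could not be counted. These 11, used wherever single genes are described, are not the 11 set for each count. They leave out the limit at the highest control probe and the 4-fold limit, and include the 2 alternatives added after seeing the data. No value was given to Kcnk7, or to Kcnj10 for GFP+ ES over GFP- ES cells, where the level in the lower population was raised to the control range, since that limit lies above the level in GFP- ES cells. For MGE over GFP- ES cells Kcnj10 had no value with the median control signal taken off and a difference under 0.01 with the floor alone. The floor also left under 2-fold the calls on Kcnip3 at 0.06 and Scn3a at 0.98 for MGE over GFP- ES cells, on Kcnmb4 at 0.88 and Cacna1c at -0.96 for MGE over GFP+ ES cells, and those on Cacna1a, Cacnb2, Cacng1 (against GFP- ES cells), Cacng5, Kcnc2 (against GFP+ ES cells) and Kcnn3 given above. Calls past 2-fold under 6 of the 11 or fewer were Scn2a for GFP+ ES over GFP- ES cells, Cacna1c, Cacna1g and Kcnk3 for MGE over GFP+ ES cells, and Cacng5, Kcnip3 and Kcnk7 for MGE over GFP- ES cells. Past 2-fold under all 11 were 16 calls. They were Cacna2d1, Kcnip2 and Kcnj9 for GFP+ ES over GFP- ES cells. For MGE over GFP+ ES cells they were Cacna2d1, Kcna6, Kcnip2 and Kcnj9. The other 9 were Cacna1e, Cacna1g, Cacna2d1, Cacng2, Kcna6, Kcnc2, Kcnd2, Kcnmb4 and Scn1a for MGE over GFP- ES cells. Where a called gene had several probes, all of them pointed the same way, in 6, 6 and 11 genes of the comparisons in that order.

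**Figure D5:**
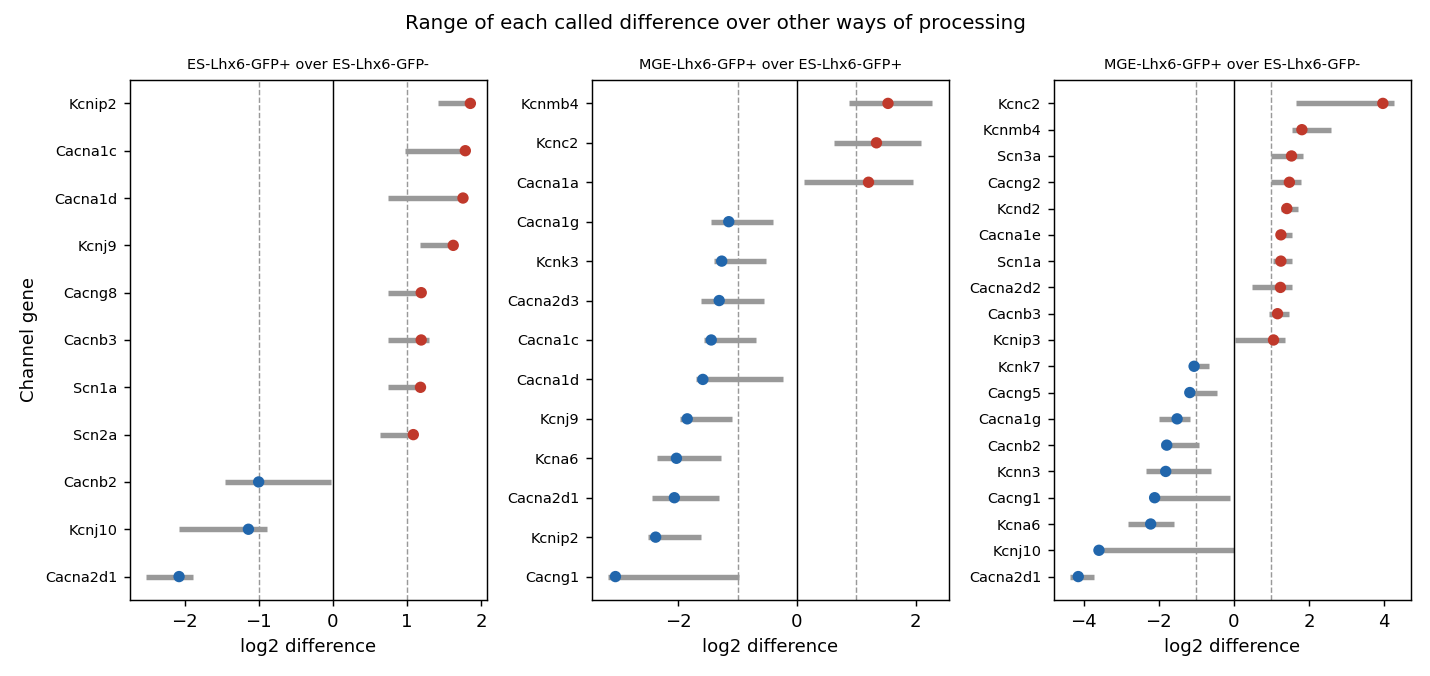
Log2 difference for 43 of the 45 calls on channel genes in the 3 comparisons (points, red higher and blue lower) with its lowest to highest value over the other ways of processing (grey bars), and dashed lines at 2-fold. Cacna2d1 stays below the lower dashed line in all 3 panels, with a difference of -2.08 between GFP+ ES and GFP- ES cells.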

How the data were processed

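RNA of 3 sorted mouse cell populations was measured on 3 one-color Agilent arrays, 1 per population, all on 1 slide and from the same scan. The authors deposited the Feature Extraction output, in which each spot has an intensity on a linear scale after background subtraction, with no scaling between arrays. The file header gives version 10.7.3.1. They also deposited a table of log2 values whose scale is not stated. It follows median spot signals that were quantile normalized without background subtraction, within 0.315 for every probe, and its column medians were 7.69 for GFP+ ES, 7.68 for GFP- ES and 7.69 for MGE cells. The labels name a low-input amplification kit and a smaller array format, and the study's methods name whole transcriptome amplification and the format that the 62976 spots per array fit, so the amplification is not settled.

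From these files log2 intensity minus the 75th percentile of the mouse probes of the array was computed with Python 3.11.15 (numpy 2.4.6, pandas 2.3.3), after leaving out spots marked as outliers (135 on the GFP+ ES, 137 on the GFP- ES and 98 on the MGE array) and averaging repeat spots. No spot was saturated. Probes well above background numbered 90.6%, 80.3% and 77.1% in that order. A gene value is the mean over its probes that were well above background on at least 1 array, an undetected probe being raised to the lowest detected level of its array. The words "at least 2-fold" name the limit of a call. Where no probe of a channel gene was detected on the dimmer array, no fold is given. Probes were named through RefSeq accessions, 26582 of 55681, with a table of GRCm38.p6 that gave names, neighbors and promoters. Of 136 symbols that fit the rule, Scn3b and Scn9a matched no probe. A few channel genes are counted but not reported here by name.

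A gene was called at a 2-fold difference if above the 95th percentile of 106 control probes on either array. With 1 array per group there was no test, SD or p-value, and precision is limited by that number. The calculation of calls was tested on simulated data with known differences, which checks the arithmetic and not the error of these arrays. The text names called channel genes by size of difference, at least 1 member of each family above the control range, and some of the genes whose probes differ in sign. The members, lists and rules were chosen with earlier results of these data known. The 11 alternatives set for each count and 2 added after seeing the data (the median control signal taken off, and differences relative to the median of all genes) are in the closing section. The normexp alternative (limma 3.58.1, R 4.3.3, offset 50) used median spot signals.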

Additional observations from a re-analysis of the deposited data

How the results depend on the processing

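The counts of called channel genes rest on 1 array per population and on how the arrays were scaled. Counts are given as higher and lower for GFP+ ES over GFP- ES, then MGE over GFP+ ES, then MGE over GFP- ES cells, which were 9 and 3, 3 and 11, and 10 and 9. Scaling by the 50th percentile gave 4 and 6, 13 and 5, and 19 and 7. Quantile normalization gave 9 and 7, 6 and 8, and 10 and 7. The normexp correction gave 7 and 1, 2 and 9, and 9 and 7, and median signals without background subtraction 8 and 1, 2 and 9, and 9 and 7. The deposited log2 values gave 7 and 4, 3 and 7, and 8 and 7. No filter on dim probes gave 47 and 5, 3 and 55, and 18 and 30, since genes within the control range then count. With the limit at the highest control probe the counts were 2 and 1, 0 and 1, and 2 and 1, since far fewer genes were compared. A floor at the control range gave 10 and 1, 0 and 11, and 8 and 3. The most intense probe of each gene gave 7 and 4, 6 and 10, and 12 and 11. A 4-fold limit gave 0 and 1, 0 and 4, and 1 and 4. Keeping the spots that Feature Extraction marked as outliers left all 6 counts as they were. Of the alternatives chosen after seeing the data, taking off the median control signal gave 9 and 1, 1 and 10, and 8 and 3, and differences relative to the median of all genes gave 8 and 3, 3 and 11, and 9 and 9. Apart from the changes whose construction is named, the cause was not tested. The median difference over all genes moved by over 0.1 on the log2 scale with the 50th percentile, to -0.43, 0.87 and 0.37, and without the filter, to 0.32, -0.44 and -0.05. With the limit at the highest control probe it was -0.09, 0.28 and 0.18. For the comparisons with GFP+ ES cells it was 0.18 and -0.05 with the floor, and 0.18 and -0.06 with the median control signal taken off.

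None of the 45 called differences changed sign under an alternative that gave it a value. All alternatives reuse the same arrays. Under a floor, a difference whose sign came from a raised level was given no value, so such a change could not be counted. Kcnj10 (GFP+ ES over GFP- ES cells) and Kcnk7 had no value under either setting with a floor, and Kcnj10 (MGE over GFP- ES cells) had none with the median control signal taken off. No paired analysis was possible because each group has 1 array. The normexp setting used median in place of mean spot signals. The control range hid differences below it most on the GFP+ ES array, where 46 of 129 channel genes passed it, or 35.7%, beside 47.0% of all genes.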
